A study of Rattus norvegicus with 24 samples.

Results

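Substance P is followed here from its gene to its inactivation through 3 genes of the rat dorsal root ganglia (DRG), which are Tac1, the precursor gene of substance P, Tacr1, the gene of the receptor that substance P binds (NK1 receptor), and Mme, the gene of neprilysin, a cell surface peptidase that cuts it. The genes were chosen by name, with earlier results of these data known, among them the Tac1 difference after ovariectomy. The tests of Tac1 are therefore not independent of that choice. Each gene matched 1 entry of the 17811 in the expression table. All rats were 20-week-old female Sprague-Dawley rats, and the L4-5 DRG of 3 groups of 8 were sequenced as polyadenylated RNA, 1 library per rat. OVX-TPTD rats had their ovaries removed and were injected with TPTD (teriparatide, a fragment of parathyroid hormone). OVX-vehicle rats had the same operation and vehicle injections, and Sham-vehicle rats were sham-operated and injected with vehicle. Ovariectomy is therefore shared by both OVX groups, which differ in the injection. According to the study's methods, the rats of each group were selected from larger groups by body weight and their response in a heat test of the paw, so that they do not represent the whole range of operated animals. The totals were between 15573490 and 19069926 counts per rat.

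Tac1 is translated into a propeptide that convertases and amidating enzymes of the secretory pathway trim to substance P and neurokinin A. In the DRG the gene is used mainly by small peptidergic nociceptors, whose central endings release substance P in the dorsal horn and whose peripheral endings release it in skin and bone. The NK1 receptor, encoded by Tacr1, acts through the G protein Gq and phospholipase C, and its best known site on the pain pathway is the spinal dorsal horn neuron rather than the sensory neuron itself. Neprilysin, encoded by Mme, degrades substance P and other peptides outside the cell.

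The tissue held its defining neuronal markers in every group. The summed FPKM (a level per gene length and sequencing depth) of 8 neuronal markers, among them Uchl1, Tubb3 and Prph, ranged from 5919 to 6647 in OVX-TPTD rats, from 5980 to 6530 in OVX-vehicle rats and from 5789 to 6606 in Sham-vehicle rats. Markers of other cells, such as the fibroblast gene Dcn, were also detected, since whole ganglia were taken, while 5 markers of B lymphocytes summed to at most 0.661 FPKM in any rat. In such bulk tissue, fewer cells of a type and less RNA per cell cannot be told apart. The rat titled OVX-vehicle replicate 1 carries a surgery label of sham in conflict with its title. Its title was followed here. For Tac1 in OVX-vehicle against Sham-vehicle rats, the group mean and edgeR's adjusted p are also given without it. The exact permutation tests, the average of both OVX groups and the fits with marker means as covariates are given only with this rat included. The same holds for the correlations within the OVX-vehicle group, the FPKM ratios and the genes most like each member. It also holds for the OVX-vehicle values of Tacr1 and Mme and of the other genes and marker lists.

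In the rn6 annotation of the table, Tac1 lies on chromosome 4 from 33638853 to 33646821 with 4 transcripts, Tacr1 on the same chromosome from 113247236 to 113416139 and Mme on chromosome 2 from 153799585 to 153880910, all on the forward strand. The 250 bases before the Tac1 start are shown because Tac1 is the member whose level differed between groups. They come from the RefSeq promoter table of the build GRCr8 (chr4:36645333-36645582, forward strand), and the capitals mark an E-box (CACGTG) and the core of a cyclic AMP response element (CGTCA, the reverse complement of TGACG).
Tac1 upstream: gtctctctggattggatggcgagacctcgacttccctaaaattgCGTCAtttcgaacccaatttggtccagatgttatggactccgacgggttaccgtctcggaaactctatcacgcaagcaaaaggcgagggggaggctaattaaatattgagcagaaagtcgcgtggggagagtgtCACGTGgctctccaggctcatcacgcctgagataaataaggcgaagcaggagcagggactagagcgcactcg
The E-box lies 72 to 67 bases and the CGTCA 206 to 202 bases before the start. Among 33469 rat promoters cut to the same length and searched on both strands, 5.59% held CACGTG and 18.2% held TGACG or its complement. The full response element TGACGTCA, the AP-1 site TGACTCA, the TATA box TATAAA, the estrogen response element GGTCANNNTGACC and its half-site GGTCA, held by 1.59%, 4.05%, 12.9%, 0.0239% and 35.4% of promoters in that order, were not found in this window of Tac1. The window of Tacr1 held TGACG (69 to 65 bases before the start), TATAAA (50 to 45) and GGTCA (195 to 191), and that of Mme held only GGTCA (41 to 37) of the motifs searched. TGACG is part of TGACGTCA, and GGTCA is part of the full estrogen element, so these matches are not counted independently. The matches describe letters only, since no binding was measured.

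The members differed widely in abundance. By mean FPKM in Sham-vehicle rats, Tac1 ranked 406 of 17811 entries, Mme 8491 and Tacr1 12260. The ratio of Tac1 to Mme FPKM averaged 41.7 ± 4.96 in OVX-TPTD rats, 41.4 ± 4.64 in OVX-vehicle rats and 36.0 ± 3.41 in Sham-vehicle rats (SD, n = 8 each). Tac1 was thus among the abundant transcripts of the ganglion, and its receptor was scarce there: Tacr1 rested on 13 to 53 counts per rat, against 3191 to 5692.5 counts for Tac1 and 289 to 492 for Mme. For a single rat at the mean count of its group, counting error alone corresponds to 1.44% to 1.67% of the level for Tac1. It corresponds to 5.04% to 5.44% for Mme and 19.3% to 21.2% for Tacr1.

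**Figure D1:**
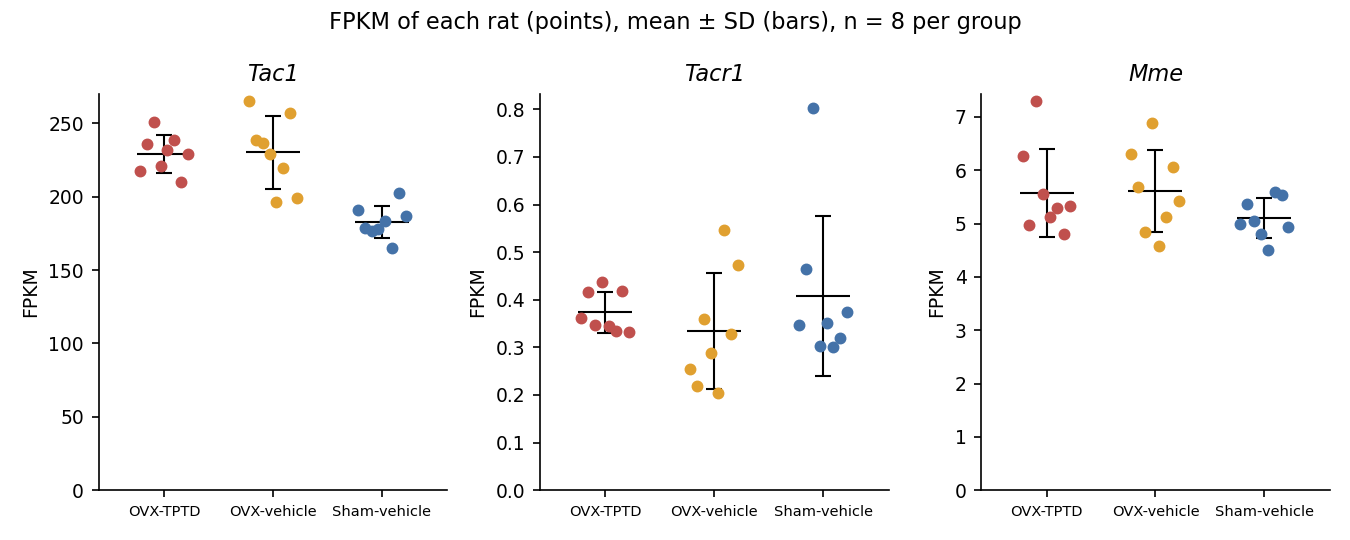
FPKM (vertical axes, each starting at 0) of Tac1, Tacr1 and Mme in each rat (points) of the OVX-TPTD, OVX-vehicle and Sham-vehicle groups, with the mean and SD as bars (n = 8 each). For Tac1, the highest Sham-vehicle rat (203 FPKM) was exceeded by all 8 OVX-TPTD rats and by 6 OVX-vehicle rats, whereas the groups overlapped for Tacr1 and Mme.

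Whether ovariectomy was accompanied by a different level of the substance P system was read from the OVX-vehicle and Sham-vehicle groups. Tac1 was higher after ovariectomy, while no difference in Tacr1 or Mme passed the test. Tac1 had 196, 233 and 265 FPKM (lowest, median and highest) in OVX-vehicle rats, against 165, 181 and 203 FPKM in Sham-vehicle rats. The groups overlapped only through OVX-vehicle replicates 5 and 8, which at 196 and 199 FPKM lay below the highest Sham-vehicle rat. Means were 230 ± 24.9 FPKM in OVX-vehicle rats and 183 ± 11.1 FPKM in Sham-vehicle rats (SD, n = 8 each). The log2 difference was 0.32 (SE 0.0536, 95% confidence interval 0.21 to 0.43, adjusted p = 0.0269 by the quasi-likelihood test of edgeR with Benjamini-Hochberg adjustment), which is a level 25.1% higher. Tac1 was the gene with the smallest p of the 12645 tested and the only one called at 0.05, so that 0.00791% of all genes tested were called. An exact permutation test of mean log2(FPKM), two-sided, gave p = 0.0004662 (0.0020979 adjusted over the 9 such tests of members), and each of the 8 OVX-vehicle rats exceeded the Sham-vehicle median. This adjustment does not cover the choice of the members, which was made with the Tac1 difference known.

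The size of the Tac1 difference moved little when a rat was left out, but the call did not hold in every fit. With 1 of the 24 rats left out, the log2 difference ranged from 0.29 to 0.35, and edgeR's adjusted p ranged from 0.00384 to 0.114. The adjusted p was over 0.05 in 10 of these fits. It was 0.0797 without OVX-vehicle replicate 1 (the rat with the conflicting label), 0.102 without replicate 2, 0.0892 without replicate 3, 0.0673 without replicate 4 and 0.0786 without replicate 7 of the same group. It was 0.0821 without Sham-vehicle replicate 2, 0.0972 without replicate 3, 0.103 without replicate 4, 0.0585 without replicate 5 and 0.114 without replicate 6. Without OVX-vehicle replicate 1, the OVX-vehicle group averaged 225 ± 22.03 FPKM (SD, n = 7), and that rat, at 265 FPKM, was the highest of all 24. Counted as a Sham-vehicle rat according to its surgery label, it reduced the log2 difference to 0.22 (adjusted p = 0.99996 by edgeR). The adjusted p was also over 0.05 when only these 2 groups were fitted (0.158) and with 1 surrogate variable (0.0526).

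**Figure D2:**
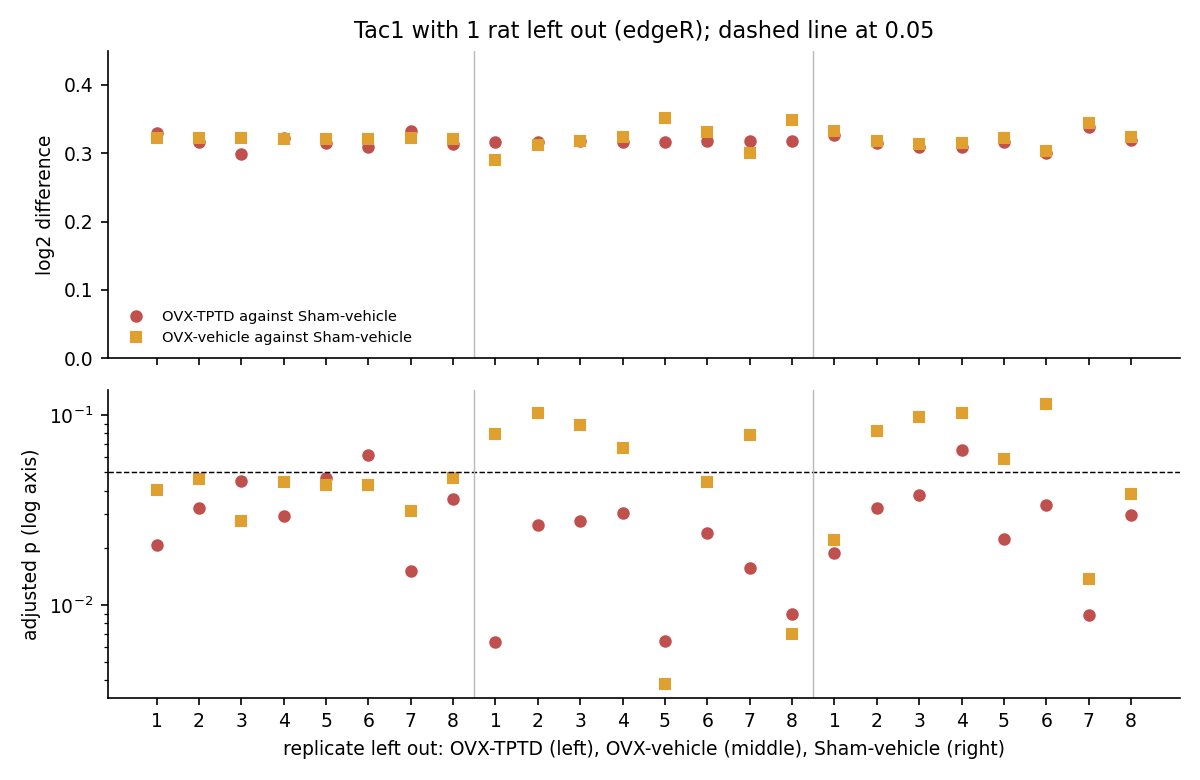
Tac1 log2 differences (upper panel) and edgeR adjusted p (lower panel, log axis, dashed line at 0.05) when the rat on the horizontal axis is left out, for OVX-TPTD against Sham-vehicle (circles) and OVX-vehicle against Sham-vehicle (squares). The differences stayed between 0.29 and 0.35, and the adjusted p was over 0.05 in 10 of 24 fits for OVX-vehicle and 2 of 24 for OVX-TPTD.

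Tacr1 had 0.205, 0.308 and 0.547 FPKM (lowest, median and highest) in OVX-vehicle rats, against 0.301, 0.349 and 0.803 FPKM in Sham-vehicle rats. The ranges overlapped, and the highest value of all, 0.803 FPKM, came from Sham-vehicle replicate 3. The log2 difference was −0.30 with an interval of −0.73 to 0.13 (adjusted p = 0.864 by edgeR), so that neither a fall nor a small rise is distinguished at this depth. Without Sham-vehicle replicate 3 the log2 difference was −0.09, and without OVX-vehicle replicate 6, the highest rat of its group, it was −0.44 (unadjusted p = 0.0413, adjusted p = 0.627 by edgeR). The receptor result thus turned on single rats.

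Mme had 4.59, 5.56 and 6.88 FPKM in OVX-vehicle rats, against 4.51, 5.02 and 5.59 FPKM in Sham-vehicle rats. The Sham-vehicle median was exceeded by 6 of 8 OVX-vehicle rats and the highest Sham-vehicle rat by 4, and the ranges overlapped at their lower ends. The log2 difference was 0.13 (95% interval −0.05 to 0.30, adjusted p = 0.864 by edgeR), and the exact permutation p was 0.123. A rise of the peptidase of more than 0.30 on the log2 scale lay outside the interval.

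**Figure D3:**
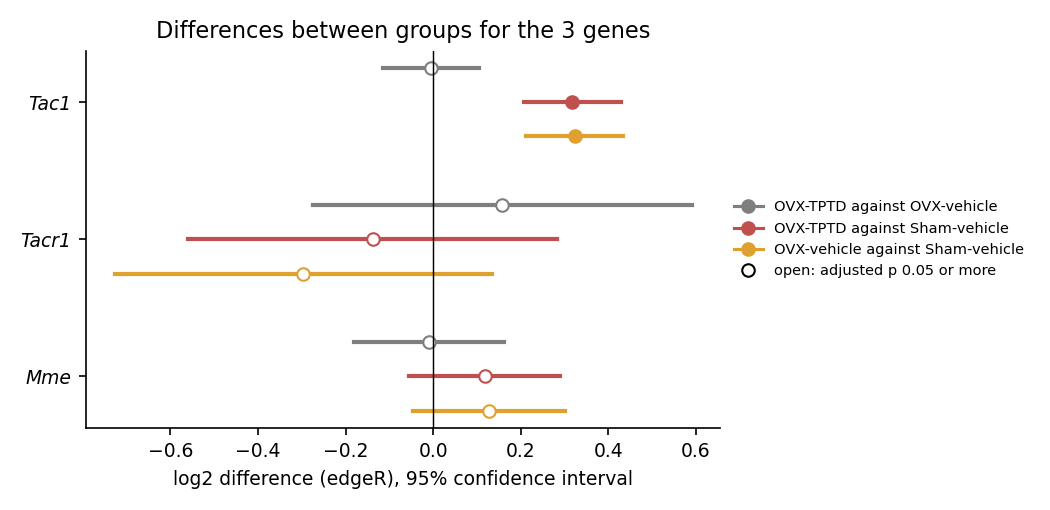
Log2 differences of Tac1, Tacr1 and Mme (points) with 95% confidence intervals (lines) from edgeR for OVX-TPTD against OVX-vehicle, OVX-TPTD against Sham-vehicle and OVX-vehicle against Sham-vehicle, with filled points where the adjusted p was under 0.05. The filled points are those of Tac1 in the comparisons with Sham-vehicle rats (0.32 in both), and the widest interval is that of Tacr1 for OVX-vehicle against Sham-vehicle (−0.73 to 0.13).

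The effect of TPTD in ovariectomized rats was read from the OVX-TPTD and OVX-vehicle groups. None of the 3 genes differed by the test. Tac1 had 210, 230 and 251 FPKM (lowest, median and highest) in OVX-TPTD rats, against 196, 233 and 265 FPKM in OVX-vehicle rats. The range of the TPTD rats fell inside that of the vehicle rats. The log2 difference was −0.01 (95% interval −0.12 to 0.10, adjusted p = 0.997 by edgeR), so that a change of Tac1 by TPTD of more than 0.12 in either direction lay outside the interval. Across all genes, 0 of 12645 (0%) were called by edgeR in this comparison, with 462 at an unadjusted p under 0.05 and 1 called by DESeq2.

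The receptor and the peptidase gave no call with TPTD either. Tacr1 had 0.332, 0.354 and 0.437 FPKM in OVX-TPTD rats, against 0.205, 0.308 and 0.547 FPKM in OVX-vehicle rats. Each of the 8 OVX-TPTD rats was above the OVX-vehicle median and 5 OVX-vehicle rats were below the lowest OVX-TPTD rat, but the 2 highest OVX-vehicle rats exceeded every OVX-TPTD rat. The SD of the OVX-TPTD rats was 11.4% of their mean, less than the counting error of a rat at their mean count (19.6%). Their narrow range is therefore closer than counting at this depth can resolve. The log2 difference was 0.16 (interval −0.27 to 0.59, adjusted p = 0.995 by edgeR), and the exact permutation p was 0.237. Mme had 4.80, 5.31 and 7.30 FPKM in OVX-TPTD rats, against 4.59, 5.56 and 6.88 FPKM in OVX-vehicle rats, with a log2 difference of −0.01 (interval −0.18 to 0.16, adjusted p = 0.997 by edgeR). Replicate 3 of the OVX-TPTD group, at 7.30 FPKM, was the highest rat of all for Mme.

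The OVX-TPTD rats were also set against the Sham-vehicle rats, which differ from them in both surgery and injection. Since the same Sham-vehicle rats served in both comparisons, the values stand side by side and are not independent. Tac1 had 210, 230 and 251 FPKM in OVX-TPTD rats, against 165, 181 and 203 FPKM in Sham-vehicle rats, and the groups did not overlap. Of the 12645 genes tested, 8 (0.0633%) were higher with no overlap between these groups. Means were 229 ± 12.96 FPKM in OVX-TPTD rats and 183 ± 11.1 FPKM in Sham-vehicle rats (SD, n = 8 each), and the log2 difference was 0.32 (SE 0.0536, interval 0.21 to 0.43, adjusted p = 0.0173 by edgeR). This p was the second smallest of the table after that of Bdnf (log2 difference 0.56), the gene of brain-derived neurotrophic factor. In all 4 genes (0.0316%) were called, the others being Tmprss5 (−0.28), a membrane serine protease gene, and Adra2c (−0.32), an adrenergic receptor gene. The exact permutation p was 0.0001554, the smallest that the division of these 16 rats allows. The adjusted p by edgeR was 0.0619 without OVX-TPTD replicate 6 and 0.0652 without Sham-vehicle replicate 4, and under 0.05 in the other 22 fits with 1 rat left out. With 1 surrogate variable the log2 difference was 0.26 (adjusted p = 0.0987), and with OVX-vehicle replicate 1 counted as a Sham-vehicle rat it was 0.25 (adjusted p = 0.336).

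Tacr1 had 0.332, 0.354 and 0.437 FPKM in OVX-TPTD rats, against 0.301, 0.349 and 0.803 FPKM in Sham-vehicle rats, a log2 difference of −0.14 (interval −0.56 to 0.28, adjusted p = 0.752 by edgeR). Its direction depended on Sham-vehicle replicate 3, without which the difference was 0.07. Mme had 4.80, 5.31 and 7.30 FPKM in OVX-TPTD rats, against 4.51, 5.02 and 5.59 FPKM in Sham-vehicle rats, a log2 difference of 0.12 (interval −0.05 to 0.29, adjusted p = 0.475 by edgeR). With both OVX groups averaged against Sham-vehicle rats, a comparison added after the data were seen, Tac1 differed by 0.32 (SE 0.0470, adjusted p = 0.00350 by edgeR, the smallest p of the table), Tacr1 by −0.22 and Mme by 0.12, the last 2 without a call.

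The other tachykinin genes were barely detected. Tac3, the neurokinin B precursor gene, and Tac4, the hemokinin precursor gene, had 0 to 6 and 1 to 11 counts per rat, and Tac3 was at 0 in 1 OVX-TPTD rat and 2 Sham-vehicle rats. Tacr2, the neurokinin A receptor gene, had 1 to 8 counts. These 3 genes were too low for the test. Tacr3, the neurokinin B receptor gene, averaged 0.314 ± 0.0878 FPKM in OVX-TPTD rats, 0.408 ± 0.135 FPKM in OVX-vehicle rats and 0.388 ± 0.0697 FPKM in Sham-vehicle rats (SD, n = 8 each), with no call in any comparison. In summed FPKM of the ligand genes, Tac1 made up nearly all of the tachykinin precursor RNA of the ganglion.

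None of the genes tested that process the propeptide or degrade substance P passed the test. Of the 8 genes of propeptide processing, all of which were tested, 0 were called by edgeR, DESeq2 or limma in any comparison, and 0 had an unadjusted p under 0.05 in edgeR. Of these, 2 were higher and 6 lower in OVX-vehicle rats than in Sham-vehicle rats (median log2 difference −0.04), where 50.9% of all genes were higher and the median of all genes was 0.00. The most abundant were Cpe, a carboxypeptidase gene, with 218, 222 and 226 FPKM on average in OVX-TPTD, OVX-vehicle and Sham-vehicle rats, and Scg5, which encodes a helper of the convertase made from Pcsk2, with 218, 218 and 214 FPKM. Pam, the gene of the enzyme that amidates the end of substance P, averaged 60.9, 61.6 and 58.9 FPKM in the same order. The convertase genes Pcsk1 (28.5, 28.0 and 28.7 FPKM) and Pcsk2 (42.3, 43.1 and 44.6 FPKM) differed between OVX-vehicle and Sham-vehicle rats by −0.04 and −0.06 on the log2 scale. Furin, another convertase gene, differed by −0.06, Cpd, a carboxypeptidase gene, by −0.02, and Pcsk1n, which encodes an inhibitor of the convertase made from Pcsk1, by −0.08.

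Of 10 peptidase genes listed for substance P, 9 were tested, and 0 were called by edgeR, DESeq2 or limma in any comparison. In OVX-vehicle rats against Sham-vehicle rats 3 were higher and 6 lower (median −0.05), and in OVX-TPTD rats against Sham-vehicle rats 4 were higher and 5 lower (median 0.00). The remaining gene, Mmel1, a relative of Mme, had 3 to 14 counts per rat. Mme was not the most abundant of them. Prep, a cytosolic prolyl peptidase gene, averaged 26.1, 26.4 and 28.0 FPKM in OVX-TPTD, OVX-vehicle and Sham-vehicle rats, and Ece1, the gene of an endothelin-converting enzyme that also cuts substance P in endosomes, averaged 24.3, 26.5 and 27.7 FPKM. Against Sham-vehicle rats, OVX-TPTD rats differed by −0.20 for Ece1, by −0.11 for Prep and by 0.11 for Nln, the neurolysin gene. In that comparison 1909 of all 12645 genes had an unadjusted p under 0.05 by edgeR. Among the 9 peptidase genes tested, these 3 had one (0.0307, 0.0487 and 0.0288), with adjusted p of 0.302, 0.330 and 0.299. Nln was also the 1 such gene in OVX-TPTD against OVX-vehicle rats (log2 difference 0.11, unadjusted p = 0.0328 by edgeR), and OVX-vehicle against Sham-vehicle rats gave 0. Ece2 (20.4 FPKM over all rats), Thop1 (13.2), Ace (2.199), Anpep (2.01) and Dpp4 (1.26) had unadjusted p of at least 0.126 in all comparisons by edgeR.

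**Figure D4:**
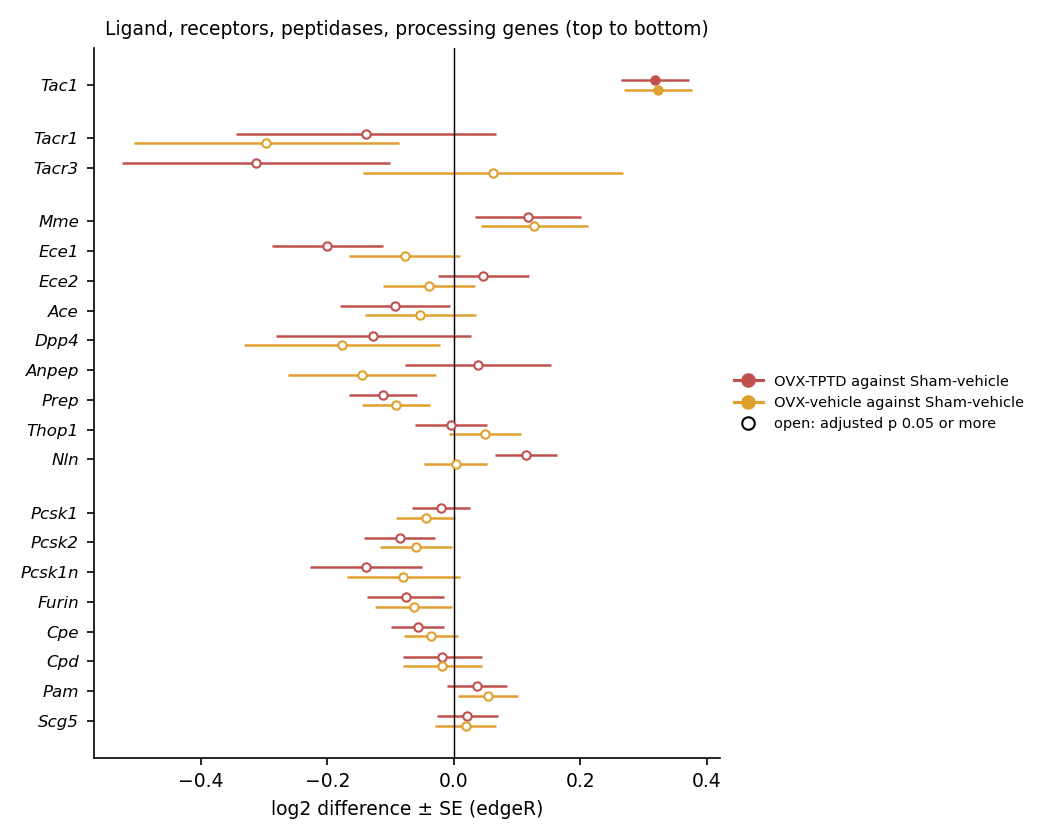
Log2 differences (points) and SE (lines) from edgeR for the tested ligand, receptor, peptidase and processing genes in OVX-TPTD and OVX-vehicle rats against the same Sham-vehicle rats, with filled points where the adjusted p was under 0.05. Tac1 is the gene with filled points, at 0.32 in both comparisons, and the other genes lie between −0.31 and 0.13.

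Genes downstream of the NK1 receptor gave 0 calls among the 20 tested by edgeR, DESeq2 or limma, and an unadjusted p under 0.05 in 1 gene of 1 comparison (OVX-TPTD against Sham-vehicle rats). Over all genes, 50.7% were higher in OVX-TPTD rats and 50.9% in OVX-vehicle rats than in Sham-vehicle rats. Of the 20 genes, 2 were higher and 18 lower in OVX-TPTD rats than in Sham-vehicle rats (median −0.09). In OVX-vehicle rats 4 were higher and 16 lower than in Sham-vehicle rats (median −0.03). In OVX-TPTD rats 4 were higher and 16 lower than in OVX-vehicle rats (median −0.05), where 49.0% of all genes were higher. The most abundant were Gnas, which encodes the stimulatory G protein subunit (−0.04 in OVX-vehicle against Sham-vehicle rats), Gnaq, which encodes the Gq subunit (0.04), Prkcd, a protein kinase C gene (−0.05), and Plcb3, a phospholipase C gene (−0.07).

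Cell type markers were measured beside Tac1. The 7 peptidergic nociceptor markers in the table summed to 582 to 754 FPKM in OVX-TPTD rats, 523 to 728 FPKM in OVX-vehicle rats and 532 to 657 FPKM in Sham-vehicle rats. They did not move one way. In OVX-vehicle rats 3 were higher and 4 lower than in Sham-vehicle rats (median −0.05), and in OVX-TPTD rats 2 were higher and 5 lower than in Sham-vehicle rats (median −0.08), of which 5 had an unadjusted p under 0.05, 0 were called by edgeR and 1 (Calca) by DESeq2. Over all genes, 1909 of 12645 had an unadjusted p under 0.05 in the comparison of OVX-TPTD with Sham-vehicle rats. Calca, the gene of calcitonin gene-related peptide, which shares these neurons with substance P, had log2 differences of 0.33 in OVX-TPTD rats and 0.19 in OVX-vehicle rats against Sham-vehicle rats, with adjusted p of 0.158 and 0.864 by edgeR. The ratio of Tac1 to Calca FPKM averaged 0.781 ± 0.0794 in OVX-TPTD rats, 0.864 ± 0.104 in OVX-vehicle rats and 0.791 ± 0.107 in Sham-vehicle rats (SD, n = 8 each). With the mean of the peptidergic markers as a covariate, the Tac1 difference of OVX-vehicle rats was 0.32 (adjusted p = 0.0323 by edgeR), and with the mean of the neuronal markers it was 0.32 (adjusted p = 0.0497). Because the peptidergic markers went both ways, their mean may not follow the amount of these cells. Whether cell composition had a part in the Tac1 difference was not tested.

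Other marker lists gave 0 calls by edgeR, DESeq2 or limma, but some leaned one way. The share of all genes above 0 was 50.9% for OVX-vehicle against Sham-vehicle, 49.0% for OVX-TPTD against OVX-vehicle and 50.7% for OVX-TPTD against Sham-vehicle. Of the 7 myelinating Schwann cell markers, all had log2 differences above 0 for OVX-vehicle against Sham-vehicle rats (median 0.16, 3 with an unadjusted p under 0.05, 0 called), and all had log2 differences below 0 for OVX-TPTD against OVX-vehicle rats (median −0.14). They summed to 3010 to 3966 FPKM in OVX-TPTD rats, 3067 to 4799 FPKM in OVX-vehicle rats and 3028 to 3992 FPKM in Sham-vehicle rats, and their part in the Tac1 result was not tested. Among the lists of other neurons, all 7 non-peptidergic nociceptor markers were below 0 for OVX-vehicle against Sham-vehicle rats (median −0.07), and the 8 large-fibre markers were split 4 to 4 (median −0.01). For OVX-TPTD against OVX-vehicle rats, all 8 large-fibre markers (median −0.05) and all 6 skeletal muscle markers tested (median −0.33) were below 0. Of the macrophage markers, 8 of 9 were above 0 for OVX-TPTD against Sham-vehicle rats (median 0.17), with sums of 101 to 181 FPKM in OVX-TPTD rats and 86.8 to 185 FPKM in Sham-vehicle rats. Of the fibroblast markers, 7 of 8 were below 0 for OVX-vehicle against Sham-vehicle rats (median −0.07). For OVX-TPTD against OVX-vehicle rats, 7 of 8 fibroblast markers were above 0 (median 0.11). So were 8 of 9 macrophage markers (median 0.15) and 6 of 7 satellite glial markers (median 0.03) in that comparison. Satellite glial, endothelial, mural and skeletal muscle markers had medians of 0.00, 0.06, 0.03 and 0.12 for OVX-vehicle against Sham-vehicle rats. The Tac1 difference between the OVX groups was −0.01, and whether any of these marker shifts had a part in the Tac1 results was not tested.

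Rats that were high in one member were not shown to be high in another. Over the 24 rats, with the group mean of log2(FPKM) removed, Tac1 and Mme had a Pearson r of 0.420 (permutation p = 0.0412, 0.124 adjusted over the 3 pairs) and a Spearman rho of 0.301 (permutation p = 0.152, adjusted 0.412). Without the 2 rats farthest from the Tac1 median, r was 0.245 (permutation p = 0.271). Within groups r was 0.450 in OVX-TPTD rats, 0.583 in OVX-vehicle rats and −0.0589 in Sham-vehicle rats. Tac1 and Tacr1 had r = −0.209 (permutation p = 0.329, adjusted 0.494) and rho = −0.231 (permutation p = 0.275, adjusted 0.412), with r = −0.379 (permutation p = 0.0819) without the 2 rats farthest from the Tac1 median. Tacr1 and Mme had r = −0.117 (permutation p = 0.585, adjusted 0.585) and rho = −0.0983 (permutation p = 0.648, adjusted 0.648), with r = −0.0572 (permutation p = 0.801) without the 2 farthest rats.

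**Figure D5:**
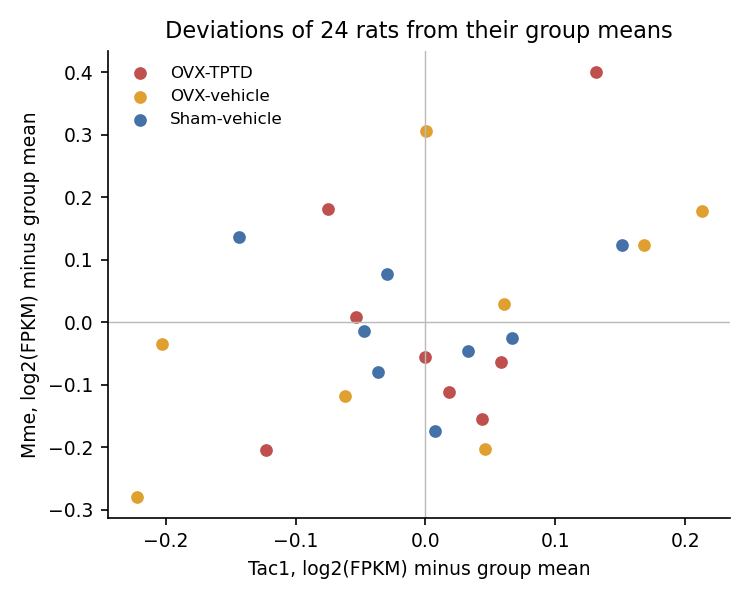
Deviations of each rat (points, coloured by group) from its group mean of log2(FPKM) for Tac1 (horizontal axis) and Mme (vertical axis). The rats scatter around 0 with r = 0.420 over 24 rats and r = 0.245 without the 2 rats farthest from the Tac1 median.

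The genes whose levels varied most like each member from rat to rat were ranked by Pearson r of log2 CPM (counts scaled to the library size) with the group means removed, over 24 rats and 12644 genes, and are given as a description. The genes of a rat share 1 library and its cell composition. For Tac1 these were Fxyd2 (r = 0.827), a sodium pump regulator gene, Lgals3 (0.815), the galectin 3 gene, Nsg1 (0.798), Ppef1 (0.780) and Mrpl42 (0.778). Their own log2 differences were between −0.01 and 0.10 in OVX-vehicle rats against Sham-vehicle rats. For Tacr1 they were Nmt2 (0.722), P2rx7 (0.708), a purinergic receptor gene, Swap70 (0.682), Col15a1 (0.681) and Pbxip1 (0.678), and for Mme they were Dok6 (0.786), Lrrc58 (0.774), Cep112 (0.761), Alg10 (0.746) and Chml (0.746). Among the 12644 genes ranked for Tac1, Mme was at place 1327 and Tacr1 at place 9274.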

How the data were processed

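Polyadenylated RNA of lumbar DRG was sequenced as stranded paired-end libraries from 24 rats, 8 per group. The authors aligned the reads to rn6 with TopHat2 2.0.14. They deposited an estimated count per entry and rat, not normalized and 86.4% whole within 0.001. The FPKM values deposited beside it were normalized by the authors to gene length and mapped reads. The expected counts were rounded, low genes were dropped by filterByExpr, and the 12645 left were fitted in edgeR 4.0.16 under R 4.3.3 (all 3 groups in 1 quasi-likelihood fit, TMM factors 0.969 to 1.015), with Benjamini-Hochberg adjustment at 0.05. FPKM of the members were compared on the log2 scale by exact permutation over 12870 divisions of the rats. Standard errors and intervals cover the spread between rats. Averaged over genes, no pair of rats within a group differed by less than the sampling noise.

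The members, gene lists and tests were chosen with earlier results of these data known, among them the Tac1 difference after ovariectomy. Named were the members, every gene in the table of the 4 lists for ligands, receptors, peptidases and processing, the 4 most abundant NK1 signalling genes, up to 3 abundant genes per marker list and the 5 genes most like each member. Tac2, Grk2, Grk3, Fam19a1, Plxnc1 and Cd79a matched no entry by symbol and are not analysed here. A few genes of the marker lists are not reported here by name. The alternatives were DESeq2 1.42.0, limma 3.58.1 on log2(FPKM + 0.1) and log2(FPKM + 1), no filter or a mean of at least 1 CPM, no TMM, 2 groups only, the replicate number as a block, the first against the last 4 replicate numbers as a covariate, 1 surrogate variable (sva 3.50.0), marker means as covariates, leaving out each rat, and OVX-vehicle replicate 1 counted as a Sham-vehicle rat. The procedures were tested on simulated data.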

Additional observations from a re-analysis of the deposited data

Results flagged for a closer look

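Sham-vehicle replicate 3 stood apart from the other rats of its group in Tacr1, at 0.803 FPKM against 0.352 ± 0.0566 FPKM in the other 7 (SD), with a gap to the nearest rat of 0.674 of the whole range, past Dixon's 95% limit for 8 samples. It was the only 1 of the 9 combinations of member and group past that limit, and chance flags about 1 in 20. The value rests on 53 counts, the highest Tacr1 count of any rat. Without this rat the log2 difference of Tacr1 was −0.09 for OVX-vehicle against Sham-vehicle rats and 0.07 for OVX-TPTD against Sham-vehicle rats.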

How the results depend on the processing

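Tac1 kept its direction against Sham-vehicle rats in all 37 alternatives of each comparison. For OVX-vehicle against Sham-vehicle rats, edgeR's adjusted p was over 0.05 with only the 2 groups compared (log2 difference 0.32, adjusted p = 0.158), with 1 surrogate variable (0.29, 0.0526) and with OVX-vehicle replicate 1 counted as a Sham-vehicle rat (0.22, 0.99996). For OVX-TPTD against Sham-vehicle rats it was over 0.05 with 1 surrogate variable (0.26, 0.0987) and with that rat counted as Sham-vehicle (0.25, 0.336). With 1 rat left out, the log2 difference ranged from 0.29 to 0.35 for OVX-vehicle and from 0.30 to 0.34 for OVX-TPTD. The cause of these changes was not tested. DESeq2 gave the smallest adjusted p (7.58e-05 for OVX-vehicle and 5.07e-05 for OVX-TPTD).

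Rats of equal replicate number did not deviate together (correlations of −0.0917 to 0.114, over 0.1 in 1 of the 24 pairs), so that the numbers did not pair the rats. With a replicate block, the Tac1 difference of OVX-vehicle against Sham-vehicle rats was 0.32 (adjusted p = 0.136 by edgeR), with 0 genes called, and 10 genes were called for OVX-TPTD against Sham-vehicle rats.

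The number of genes called for OVX-vehicle against Sham-vehicle rats (1) was 2 with limma on log2(FPKM + 0.1), on log2(FPKM + 1) and with no filter on low counts, 6 with DESeq2, and 0 with the 2 groups only, with 1 surrogate variable and with OVX-vehicle replicate 1 as Sham-vehicle. With 1 rat left out it ranged from 0 to 2. For OVX-TPTD against Sham-vehicle rats (4) it was 9 without TMM factors, 7 with limma on log2(FPKM + 1), 10 at a mean of at least 1 CPM, 1 with OVX-vehicle replicate 1 as Sham-vehicle and 36 with DESeq2. With 1 rat left out it ranged from 1 to 14, the highest being without OVX-vehicle replicate 1. For OVX-TPTD against OVX-vehicle rats (0) DESeq2 called 1.

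Tacr1 and Mme passed in none of the alternatives run. The Tac1 difference between OVX-TPTD and OVX-vehicle rats, −0.04 to 0.03, had the opposite sign in 10 of 37 alternatives, and that of Mme in 8. DESeq2 gave no adjusted p for Tacr1 in OVX-TPTD against Sham-vehicle rats. The low counts of Tacr1, Tac3, Tac4 and Tacr2 limit what can be said of them.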
